A study of Mus musculus with 6 samples.

Results

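The unfolded protein response regulators described here are 10 genes, *Ern1*, *Eif2ak3*, *Atf6*, *Xbp1*, *Atf4*, *Ddit3*, *Trib3*, *Chac1*, *Herpud1* and *Pdia4*, out of 22911 genes with a named probe on the array. They were chosen by name with earlier results of these data known, so counts of members are a description and not an independent test. Their 14 probes were found through RefSeq accessions. All 10 passed the filter on dim probes, which left 14898 genes tested. RNA was measured in WT cells, OS3 mouse glial cells that carry the empty vector, and in IG27 cells, OS3 cells that carry the mutated histone H3.3K27M (*n* = 3 dishes each, harvested after 2 days of culture). OS3 is a glial line from the brain of newborn C3H/HeN mice (male and C3H in the labels), immortalized with SV40, so both groups share that background. IG27 cells came from plasmid transfection followed by selection of drug-resistant clones. The labels name no clone and no second independent line, so the p-values measure the spread between dishes of these cultures. The comparison asks how RNA expression differed between IG27 and WT cells. An effect of the mutated histone cannot be told apart from one of the clone.

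The unfolded protein response adjusts the folding capacity of the endoplasmic reticulum (ER) to its load of unfinished protein. Distinct membrane proteins sense that load. IRE1α (*Ern1*) is a kinase and nuclease that splices *Xbp1* RNA so that it encodes an active transcription factor. PERK (*Eif2ak3*) phosphorylates the initiation factor eIF2α, which slows translation in general but favors translation of ATF4, and ATF4 in turn drives *Ddit3* (CHOP), *Trib3* and *Chac1*. ATF6 moves to the Golgi, where proteases release its active part. The PERK arm shares ATF4 with other eIF2α kinases, which answer to amino acid shortage, heme deficiency and viral RNA, and this wider network is known as the integrated stress response.

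*Trib3*, *Chac1* and *Ddit3*, the output genes of ATF4, were 4.57-fold, 2.73-fold and 2.36-fold higher in IG27 than in WT cells. *Atf4* itself was 1.30-fold higher. *Pdia4*, an ER folding enzyme, fell to 0.575 of its WT level and *Ern1* to 0.821, and *Eif2ak3*, *Atf6*, *Xbp1* and *Herpud1* did not pass the test. In all, 4 members were called higher, 2 lower and 4 not called (limma with Benjamini-Hochberg adjustment over all genes tested, adjusted p under 0.05, which is the source of every adjusted p given below). This count must be read against a large background, since 70.5% of all genes tested were called in either direction, 30.5% higher and 40.0% lower. The values of the groups did not overlap in 7 of the 10 members and in 75.7% of all genes. Being called was therefore no more frequent among these genes than elsewhere. A rise of at least 2-fold was called in 3 of the 10 against 11.5% of all genes. The median log2 fold change was 0.02 over the members and -0.07 over all genes tested.

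Promoter sequence is shown for 3 members and for *Asns* and *Hspa5*, well-known outputs of ATF4 and of the ER stress factors, to place the letters that ATF4 and the ER stress factors are known to read. The RefSeq table (GRCm38.p6) held a window from 250 bases before to 50 bases after the start site for 9 of the 10 members, all but *Atf6*. Capitals mark matches to the searched motifs. Those searched, on both strands, were the ATF4 composite element (TGATG, 1 free base, AA), the ER stress element (CCAAT, 9 free bases, CCACG), the ER stress element II (ATTGG, 1 free base, CCACG) and the core TGACGTG of XBP1 and ATF6. The shorter letters CCACG, which lie inside both ER stress elements, were also searched but are not capitalized on their own. Of the capitalized motifs, the first 3 sequences hold the composite element, the fourth holds it together with ER stress element II, and the last, of the chaperone BiP, holds the ER stress element and the core. *Chac1* and *Asns* are shown for the 250 bases before the start, at chr2:119350992-119351241 on the plus strand and chr6:7693210-7693459 on the minus strand. *Trib3* is shown for 30 bases around its match at chr2:152344028-152344057 on the minus strand. *Herpud1* and *Hspa5* are shown for the 250 bases before the start, at chr8:94386179-94386428 and chr2:34771840-34772089 on the plus strand.
Trib3: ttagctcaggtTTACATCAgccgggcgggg
Chac1: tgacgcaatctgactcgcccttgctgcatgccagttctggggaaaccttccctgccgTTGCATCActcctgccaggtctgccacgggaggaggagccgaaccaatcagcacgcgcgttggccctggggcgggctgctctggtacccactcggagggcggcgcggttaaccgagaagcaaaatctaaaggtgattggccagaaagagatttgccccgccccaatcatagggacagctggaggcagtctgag
Asns: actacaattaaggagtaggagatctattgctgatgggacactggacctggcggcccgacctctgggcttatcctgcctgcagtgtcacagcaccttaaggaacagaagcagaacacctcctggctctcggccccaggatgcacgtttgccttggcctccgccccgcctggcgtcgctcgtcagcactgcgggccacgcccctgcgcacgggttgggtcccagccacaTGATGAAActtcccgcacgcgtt
Herpud1: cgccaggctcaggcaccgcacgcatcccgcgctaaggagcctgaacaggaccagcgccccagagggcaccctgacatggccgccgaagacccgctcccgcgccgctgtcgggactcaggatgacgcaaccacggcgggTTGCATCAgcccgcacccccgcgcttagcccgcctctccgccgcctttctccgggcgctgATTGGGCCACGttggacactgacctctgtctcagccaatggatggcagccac
Hspa5: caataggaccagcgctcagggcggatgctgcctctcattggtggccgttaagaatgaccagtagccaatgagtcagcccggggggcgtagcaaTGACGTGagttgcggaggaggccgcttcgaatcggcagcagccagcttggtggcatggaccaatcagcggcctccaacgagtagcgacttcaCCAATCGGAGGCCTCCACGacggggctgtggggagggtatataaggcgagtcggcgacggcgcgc

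The composite element was centered 18 bases after the start in *Trib3*, 189 bases before it in *Chac1* and 108 bases before it in *Herpud1*. It was found in 3.97% of all 32851 promoter windows (1304). ER stress element II, centered 46.5 bases before the start of *Herpud1*, was found in 12 windows of all (0.0365%). The windows of *Ddit3*, *Xbp1* and *Eif2ak3* held none of the searched letters, and those of *Pdia4*, *Ern1* and *Atf4* held only CCACG, which 32.8% of all windows also hold. These matches are a description of letters in a fixed window, and no binding was measured.

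**Figure D1:**
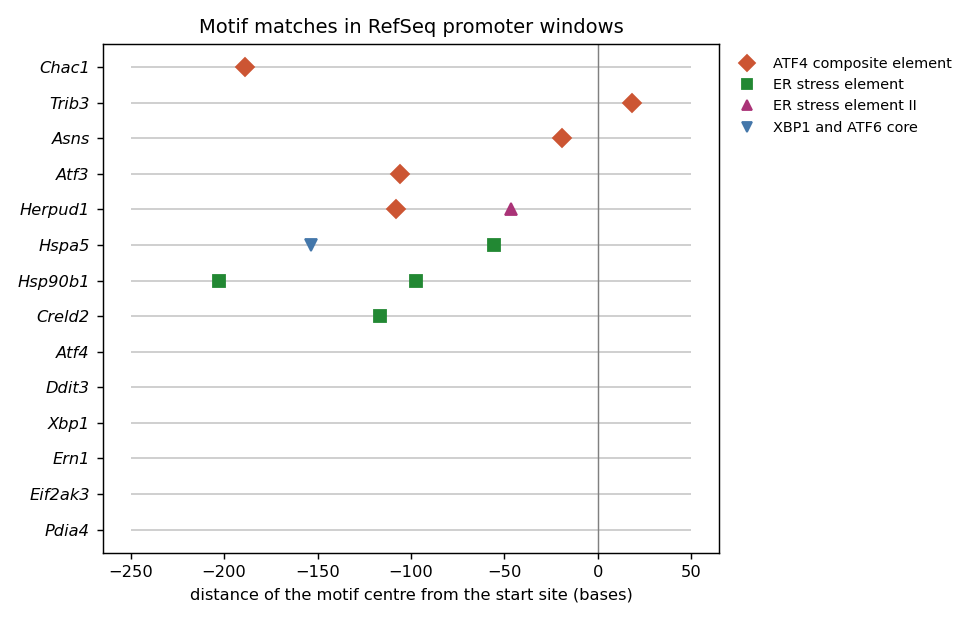
Position of motif matches in RefSeq promoter windows, with the distance of the motif centre from the start site in bases on the horizontal axis and 1 gene per line. The composite element lies in the windows of *Chac1*, *Trib3*, *Asns*, *Atf3* and *Herpud1*, and the ER stress element in those of *Hspa5*, *Hsp90b1* and *Creld2*. Matches to the letters CCACG alone are not drawn.

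All values below are normalized log2 intensities, that is, log2 of the processed signal minus the 75th percentile of the same array, so that a value of 0 equals that percentile. They are compared between groups and not between genes. All 14 probes were well above background on all 5 arrays that carry this flag. The scanner file of IG27 replicate 2 is cut short, with 285 of 62976 spots, and that array's values were taken from the table deposited with the series.

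The sensors showed differences that were small beside those of the ATF4 outputs. *Ern1* read -1.84, -1.99 and -2.12 in WT replicates 1 to 3 and -2.33, -2.19 and -2.30 in IG27 replicates 1 to 3. All IG27 values were below all WT values, by a margin smaller than the range within WT. This amounted to a log2 fold change of -0.28 (SE 0.08, adjusted p = 0.0234). The call was lost without WT replicate 1 (-0.21), WT replicate 2 (-0.29), IG27 replicate 1 (-0.25) or IG27 replicate 3 (-0.27). A block for slide row also cost it (-0.28, adjusted p = 0.125).

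*Eif2ak3* read 0.68, 0.42 and 0.55 in WT and 0.32, 0.47 and 0.40 in IG27 cells. The groups overlapped, and the log2 fold change of -0.15 (95% interval -0.35 to 0.05, adjusted p = 0.143) did not pass the test. *Atf6* read 0.66, 0.34 and 0.60 in WT cells against 0.32, 0.32 and 0.28 in IG27 cells. Here WT replicate 2 lay beside the IG27 arrays while the other 2 WT arrays were higher. The log2 fold change was -0.22 (SE 0.09, adjusted p = 0.0662), and without WT replicate 2 it was -0.32 and passed (adjusted p = 0.00422). The intervals of *Eif2ak3* and *Atf6* reach down to 0.785 and 0.734 of the WT level, so a fall of that size is compatible with the arrays.

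The transcription factors came next in the pathway. *Xbp1*, the substrate of IRE1α and a known target of ATF6, read 3.73, 3.50 and 3.43 in WT and 3.72, 3.68 and 3.60 in IG27 cells on its brightest probe. The groups overlapped, with a log2 fold change of 0.11 (95% interval -0.11 to 0.33, adjusted p = 0.301). Its other 2 probes gave 0.07 and 0.20. Without WT replicate 1 the brightest probe gave 0.20 and passed (adjusted p = 0.0409). The files do not say which form of *Xbp1* RNA the probes read, so the array gives total *Xbp1* RNA at best and not its splicing.

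*Atf4* read 6.90, 6.43 and 6.59 in WT cells and 7.10, 6.94 and 7.01 in IG27 cells. The IG27 arrays were all higher, but WT replicate 1 came close to the lowest of them. The log2 fold change was 0.38 (SE 0.13, adjusted p = 0.0345). Leaving out 1 array cost the call in 5 of 6 cases, at 0.27 without WT replicate 2, 0.35 without WT replicate 3, and 0.34, 0.42 and 0.38 without IG27 replicates 1, 2 and 3. The second *Atf4* probe separated the groups more clearly, with 2.61, 2.62 and 2.63 in WT cells against 3.25, 3.09 and 3.37 in IG27 cells. Its log2 fold change was 0.62 (adjusted p = 5.57e-04, adjusted over all probes that passed the filter). ATF4 is set mainly by translation, which an array does not measure.

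*Ddit3* encodes CHOP, a transcription factor of prolonged ER stress that favors cell death. It read 0.24, 0.28 and 0.24 in WT and 1.49, 1.54 and 1.45 in IG27 cells. The 2 groups were far apart and each was tight. The log2 fold change was 1.24 (95% interval 1.13 to 1.36, adjusted p = 2.58e-06).

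**Figure D2:**
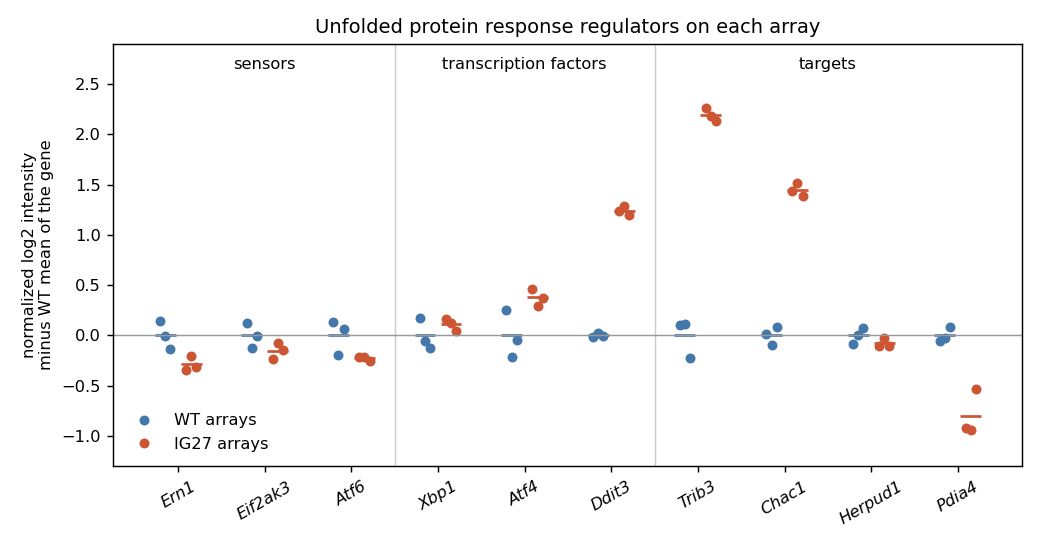
Normalized log2 intensity of each regulator on each of the 6 arrays, minus the gene's WT mean, with 3 WT and 3 IG27 points per gene and short bars at the group means. *Trib3*, *Chac1* and *Ddit3* sit well above the WT points and *Pdia4* below them, while the 3 sensors, *Xbp1*, *Atf4* and *Herpud1* stay within 0.5 of the WT mean.

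The targets at the end of the pathway moved in both directions. *Trib3*, a pseudokinase that ATF4 and CHOP induce and that in turn restrains them, read 1.97, 1.98 and 1.65 in WT cells and 4.13, 4.05 and 4.0 in IG27 cells. Its log2 fold change of 2.19 (95% interval 1.94 to 2.44, adjusted p = 6.38e-06) was the largest among the 10 genes, and 858 of all genes tested rose more. *Chac1*, an enzyme that breaks down glutathione, read 2.45, 2.33 and 2.51 in WT and 3.86, 3.95 and 3.82 in IG27 cells. The groups of *Chac1* were separated by more than 1 log2 unit, with a log2 fold change of 1.45 (95% interval 1.28 to 1.61, adjusted p = 5.82e-06).

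*Herpud1*, a membrane protein that helps hand misfolded proteins to the degradation machinery, has both a composite element and ER stress element II in the window shown. It read 1.44, 1.53 and 1.60 in WT and 1.42, 1.5 and 1.41 in IG27 cells. These ranges overlapped, and the log2 fold change was -0.08 (95% interval -0.23 to 0.07, adjusted p = 0.279). The second probe gave -0.07. An increase above 1.05-fold lies outside the interval of the brightest probe, whereas *Trib3* and *Chac1*, with the same element, rose by more than 2-fold.

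*Pdia4*, also called ERp72, is a disulfide isomerase of the ER lumen. It read 2.69, 2.72 and 2.83 in WT and 1.82, 1.81 and 2.21 in IG27 cells. IG27 replicate 3 was nearer to WT than the other 2 IG27 arrays but remained below all of them. The log2 fold change was -0.80 (95% interval -1.09 to -0.51, adjusted p = 0.00122). The calls of *Ddit3*, *Trib3*, *Chac1* and *Pdia4* held in each of 17 alternative settings, those of the left-out arrays included.

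**Figure D3:**
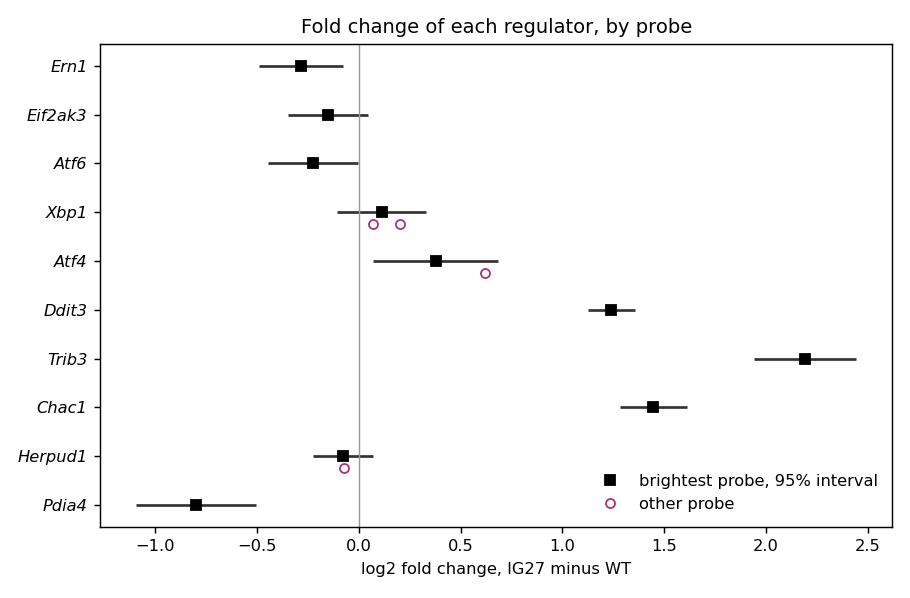
Log2 fold change of each regulator (IG27 minus WT, 3 arrays each), with squares for the brightest probe, lines for its 95% interval from limma and open circles for the other probes of the same gene. The intervals of *Eif2ak3*, *Xbp1* and *Herpud1* cross 0, that of *Atf6* ends just below it, and the second *Atf4* probe lies at 0.62.

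The median log2 fold change of the genes tested was not the same on every chromosome, and each member was set beside its own chromosome. *Trib3* and *Chac1* lie on chromosome 2, where the median log2 fold change of 1149 genes was -0.34, and both rose. *Herpud1* lies on chromosome 8, where the median of 769 genes was -0.67, below its own -0.08. *Pdia4* and *Eif2ak3* lie on chromosome 6 (median -0.21), *Ern1* and *Xbp1* on chromosome 11 (-0.12), *Ddit3* on chromosome 10 (0.08) and *Atf6* on chromosome 1 (-0.01). *Atf4* lies on chromosome 15, whose 611 genes had a median of 0.30, close to its own 0.38. The part of these chromosome-wide levels in the values of *Atf4*, *Ern1* and *Pdia4* was not tested.

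The wider pathway was described with lists of genes known to act in each branch. These lists too were chosen with earlier results of these data known. Among genes known as targets of ATF4 and CHOP, 21 of 30 tested were called higher, 3 lower and 6 not called, beside 30.5% higher and 40.0% lower over all genes. Their median log2 fold change was 0.82, and 11 were called at least 2-fold higher, beside 11.5% of all genes tested. *Gdf15*, a stress cytokine, read -4.45, -4.96 and -4.74 in WT and 2.51, 2.49 and 2.59 in IG27 cells. Its log2 fold change was 7.25 (SE 0.13, adjusted p = 1.68e-07). *Stc2*, a secreted glycoprotein, and *Fgf21*, a metabolic hormone, were not well above background on any WT array, so their change has only a lower bound. *Stc2* was at least 18.8-fold higher and *Fgf21* at least 13.2-fold higher in IG27 cells. Such a bound sets the IG27 mean against the lowest signal that is well above background on each WT array, and it holds for the processed signal. With normexp background correction the fitted changes were smaller, 8.18-fold for *Stc2*, 4.64-fold for *Fgf21* and 63.3-fold (5.98 on the log2 scale) for *Gdf15*. That fit used the median signal, not the processed signal, with an offset of 50. It covered the 5 complete arrays, without IG27 replicate 2. *Stc2*, *Fgf21* and *Slc7a11* passed the filter through the IG27 arrays alone, so they could only be called higher. They are among the 11 genes counted as at least 2-fold higher. Of the 27 genes of the list well above background in both groups, 18 were higher and 3 lower, with a median of 0.78.

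The textbook outputs of this branch were named whatever their values. Their log2 fold changes lay between 0.80 and 0.98, beside the list's median of 0.82. *Atf3*, a transcription factor induced early in stress, read 2.94, 2.88 and 2.95 in WT and 3.76, 3.88 and 4.05 in IG27 cells (log2 fold change 0.98, adjusted p = 8.49e-05). *Asns*, asparagine synthetase, read 3.08, 2.84 and 2.83 in WT and 3.83, 3.70 and 3.62 in IG27 cells (0.80, adjusted p = 3.82e-04). *Ppp1r15a* encodes GADD34, which brings the phosphatase to eIF2α, and its log2 fold change was 0.96 (adjusted p = 1.02e-05). The groups did not overlap in any of these 3 genes, which also held for 75.7% of all genes tested. Against the direction of the list, *Slc7a3*, a transporter of basic amino acids, fell by 1.05, *Tnfrsf10b*, a death receptor, fell by 0.56, and *Cebpb*, a partner of CHOP, fell by 0.50 on the log2 scale. Of 27 genes of this list with a promoter window, 7 held the composite element, beside 4.51% of all genes with a window. Of these, *Asns*, *Atf3*, *Nupr1* and *Vldlr*, measured in both groups, were called higher. So were 18 of all 27 list genes measured in both groups, with or without the element, and 30.5% of all genes tested. *Slc7a11* and *Fgf21* passed the filter through IG27 arrays alone, and *Pycr1* was not tested.

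The next list held eIF2α kinases, eIF2, its phosphatase and its exchange factor. It had no common direction, with 4 of 14 genes higher (28.6%), 6 lower (42.9%) and 4 not called (median -0.08). These shares are near those over all genes, 30.5% and 40.0%. Beside *Ppp1r15a*, which stands in this list too, *Eif2ak2*, the kinase PKR that responds to double-stranded RNA, rose by 0.31. *Eif2b3*, a subunit of the exchange factor eIF2B, rose by 0.28, while *Eif2b1*, another subunit, fell by 0.48. *Eif2ak4*, the amino acid sensor GCN2, fell by 0.40, and *Eif2s3x*, a subunit of eIF2, fell by 0.45. Phosphorylation of eIF2α was not measured on these arrays.

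**Figure D4:**
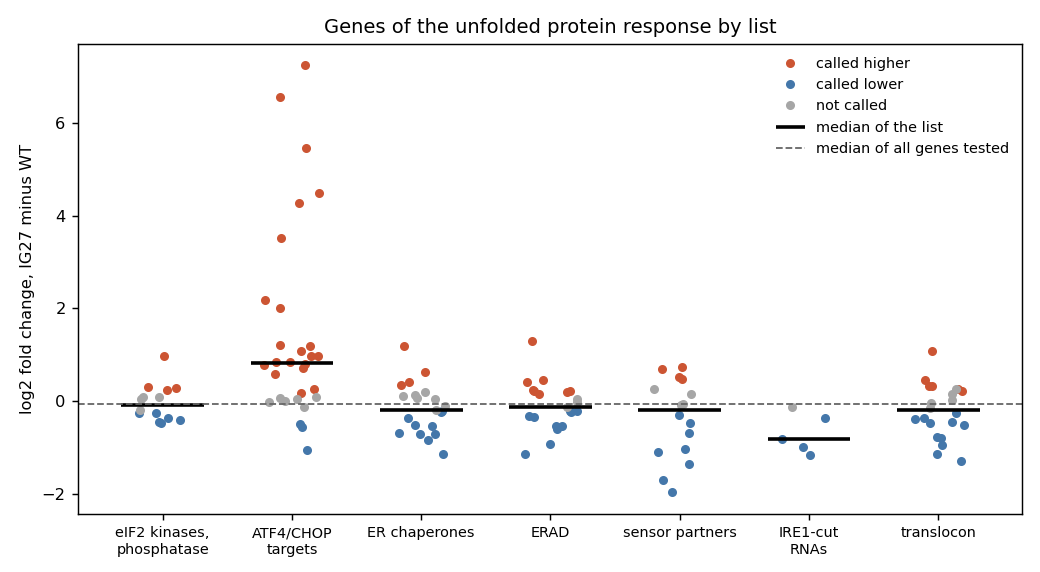
Log2 fold change (IG27 minus WT) of each tested gene in 7 lists of the unfolded protein response, 1 point per gene, colored by its call, with a bar at the list's median and a dashed line at the median of all 14898 genes tested (-0.07). The ATF4 and CHOP targets have a median of 0.82 and reach above 7, whereas the medians of the other lists lie between -0.82 and -0.08. The fitted values of *Stc2*, *Fgf21* and *Slc7a11* are drawn, although their changes are known only as lower bounds.

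ER chaperones and folding enzymes, known targets of ATF6 and spliced XBP1, had members called in both directions, with 4 of 21 higher (19.0%), 10 lower (47.6%) and 7 not called (median -0.18). Over all genes 30.5% were higher and 40.0% lower, and under quantile normalization the list held 7 higher and 8 lower. *Hspa5*, which encodes BiP and is the usual gauge of the response, read 5.69, 6.54 and 6.39 in WT and 6.24, 6.28 and 6.30 in IG27 cells. WT replicate 1 was low, the IG27 values fell inside the WT range, and the log2 fold change was 0.07 (SE 0.22, adjusted p = 0.804). Without WT replicate 1 it was -0.19 (adjusted p = 0.0523), and its probes ranged from -0.27 to 0.07. *Hsp90b1*, the chaperone GRP94, gave -0.18 (adjusted p = 0.0620), and -0.25 without IG27 replicate 3, where it passed (adjusted p = 0.00922).

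Other chaperones differed beyond the spread of the arrays. *Hyou1*, a large ER chaperone, read -1.19, -1.21 and -1.10 in WT and -2.57, -2.16 and -2.17 in IG27 cells, a fall in which every IG27 array lay below every WT array (log2 fold change -1.13, adjusted p = 2.61e-04). *Manf*, a secreted survival factor, fell by 0.85 and *Ppib*, a prolyl isomerase, fell by 0.72. *Ero1a*, the oxidase that drives disulfide formation and also a CHOP target, rose by 1.19. *Sil1*, an exchange factor of BiP, rose by 0.63 and *Dnajb9*, a cochaperone induced by XBP1, by 0.41. The ER stress element was present in 8 of 18 genes of this list with a window, beside 0.137% of all genes, and of these 8 none was called higher and 4 were called lower, beside 30.5% and 40.0% of all genes tested.

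ER-associated degradation, which removes misfolded proteins, held genes of both directions, with 8 of 21 higher (38.1%), 10 lower (47.6%) and 3 not called (median -0.12), beside 30.5% and 40.0% of all genes. *Derl1*, a channel component, rose by 1.29, and the ubiquitin-conjugating enzymes *Ube2j1* and *Ube2j2* by 0.46 and 0.40. *Herpud2*, the relative of *Herpud1*, fell by 0.92. *Edem1*, which marks glycoproteins for disposal, fell by 0.61, although its probes ranged from -0.61 to 0.10. Under a block for slide row, 6 genes of this list were higher and 6 lower, and under quantile normalization 9 and 7.

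A further list held other ER-bound factors and the proteins that process or bind the sensors. In it, 4 of 16 genes were higher (25%), 8 lower (50%) and 4 not called (median -0.20). These shares are near the 30.5% and 40.0% of all genes. *Mbtps2*, the site-2 protease that releases ATF6, fell by 1.37. *Creb3l3*, a relative of ATF6, fell by 1.97 and *Ern2*, the epithelial IRE1β, fell by 1.71, with probes from -1.71 to -0.34. *Crebzf* rose by 0.74, *Tmbim6*, a restraint on IRE1α, by 0.69 and *Wfs1*, an ER membrane protein that restrains ATF6, by 0.52. Of the RNAs that IRE1α is known to cut, 4 of 5 tested were lower, 1 was not called and none was higher (median -0.82), where 40.0% of all genes were lower. *Pdgfrb* fell by 1.16, *Hgsnat* by 0.98 and *Col6a1* by 0.82, and *Pdgfrb* is also a marker in the fibroblast and mural list below.

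The translocon and signal peptide machinery, through which proteins enter the ER, gave 6 of 22 higher (27.3%), 11 lower (50%) and 5 not called (median -0.20), near the 30.5% and 40.0% of all genes. *Sec63* rose by 1.09 and its partner *Sec62* fell by 1.29. *Sec11c*, of the signal peptidase, rose by 0.46 while *Spcs3* of the same complex fell by 0.94. *Sec61b*, a channel subunit, rose by 0.33, a call lost under a block for slide row (0.32, adjusted p = 0.0924), and *Srprb*, of the receptor for the signal recognition particle, fell by 1.14. *Dnajc3*, *Ppp1r15a* and *Ero1a* each stand in a pair of lists and were counted in both.

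Arrays of the same group correlated at 0.994 to 0.997 over all genes tested, and arrays of different groups at 0.902 to 0.905. Between 58.8% and 61.2% of probes were well above background on each array with the flag, and no spot was saturated. *H3f3a*, the gene of the expressed histone, gave -0.26 on the log2 scale (adjusted p = 0.0237), with probes from -0.26 to 0.17, which leaves the labels unchecked. Of 10 astrocyte and radial glia markers, 8 were well above background on all flagged WT arrays and 9 on all flagged IG27 arrays. Of 8 oligodendrocyte lineage markers, 7 and 8 were. *Gfap*, *S100b*, *Sox9*, *Nes*, *Vim*, *Olig1*, *Olig2* and *Pdgfra* were among those well above background in both groups. *Aqp4* was so on all flagged WT arrays but not on all IG27 arrays. *Slc1a3*, *Fabp7* and *Cspg4* were so on all flagged IG27 arrays but not on all WT arrays. Of markers of other cells, 3 of 6 neuronal (*Rbfox3*, *Syt1*, *Dcx*), 2 of 6 microglial and leukocyte (*Ptprc*, *Cx3cr1*) and 3 of 5 endothelial genes (*Cdh5*, *Tek*, *Cldn5*) were on no such array well above background. In contrast, *Snap25*, *Tubb3*, *Itgam*, *Csf1r*, *Tmem119* and *Pecam1* were well above background in both groups, and *Map2*, *Aif1* and *Kdr* on all flagged IG27 arrays but not on all WT arrays. The summed linear level of the 7 fibroblast and mural markers, relative to the 75th percentile, ran from 149 to 152 in WT and from 80.0 to 85.2 in IG27 cells, with 1 called higher and 3 lower, and its part in the values of *Pdgfrb* and *Col6a1* was not tested. The sum of the astrocyte and radial glia markers ran from 268 to 282 in WT and from 204 to 217 in IG27 cells. Of these markers, 4 were called higher and 4 lower. The neuronal sum ran from 17.5 to 19.9 in WT and from 9.97 to 11 in IG27 cells. The endothelial sum ran from 0.172 to 0.194 in WT and from 2.60 to 2.67 in IG27 cells. The neuronal and endothelial lists each had 1 marker called higher and 1 lower. The oligodendrocyte lineage (73.8 to 75.9 and 74.8 to 77.4) and microglial and leukocyte sums (14.4 to 15.4 and 13.6 to 14.1) differed less. In the oligodendrocyte lineage list 4 markers were called higher and 2 lower, and in the microglial and leukocyte list 2 higher and 2 lower. In bulk RNA, fewer cells of a type and less RNA per cell cannot be told apart.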

How the data were processed

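Total RNA from 3 WT and 3 IG27 dishes was labeled with Cy3 and read on 6 Agilent mouse arrays of 1 color, all on 1 slide. The authors read the spots with Feature Extraction (version 9.1 per the submitters' processing notes, 10.7.3.1 per the file headers), and the deposited processed signal is an intensity on a linear scale. The scanner output of IG27 replicate 2 is truncated, so its values came from the deposited value table, which equaled the scanner output in 255 of 255 single-spot probes present (relative tolerance 1e-04). That table swaps WT replicate 2 with WT replicate 3, and the labels of the scanner files were followed.

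Log2 processed signal minus the 75th percentile of the array was analyzed. Outlier spots were left out, which could not be done for IG27 replicate 2. A gene was tested if any of its probes was well above background on all flagged arrays of at least 1 group. The brightest of the probes that passed was used. Groups were compared with limma 3.58.1 in R 4.3.3 (two-sided, Benjamini-Hochberg adjustment, threshold 0.05). Only this fit, and not normalization, filter or choice of probe, was tried on simulated data, in which few genes changed. Probes were named through RefSeq accessions (GRCm38.p6). Depth does not apply to arrays, whose number limits the precision.

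Named were all members, the 3 largest called rises and falls without overlap in each list, and *H3f3a*, *Hspa5*, *Hsp90b1*, *Atf3*, *Asns* and *Ppp1r15a*. *Nupr1*, *Vldlr* and *Slc7a11* were named after their values were seen, and 1 gene that the rule names is not reported here. The members and lists were chosen with earlier results of these data known. Alternatives covered normalization, filters, probes, background correction, blocks, the value table and each array left out.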

Additional observations from a re-analysis of the deposited data

How the results depend on the processing

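Across 17 alternative settings, between 8946 and 10855 genes were called in place of 10501. The number of members called lower was 2, and it fell to 1 without a filter on dim probes and under a block for slide row and rose to 3 with trend in eBayes and with unadjusted p-values. Leaving out 1 array gave 1 to 2 members lower (1 without WT replicate 1, IG27 replicate 1 or IG27 replicate 3), 3 to 5 higher and 9799 to 10162 genes called. *Ern1* and *Atf4* each lost the call in 6 settings, among them the fit without a filter (adjusted p = 0.0551 and 0.0734), and *Atf6* gained it in 3 and *Xbp1* in 2. *Herpud1* changed sign under quantile normalization (0.015), and *Hspa5* with the mean of its probes (-0.14), under the row block (-0.27) and when arrays were left out (-0.19 without WT replicate 1 to 0.23 without WT replicate 2). Neither *Herpud1* nor *Hspa5* was called in these fits, and the causes were not tested. Quantile normalization raised the eIF2 list and the chaperone list from 4 to 7 genes higher each (the chaperone list from 10 to 8 lower), and the row block lowered the degradation list from 10 to 6 genes lower. Over 43 named list genes, 722 of 729 values kept direction and call. Most of these genes were chosen as the largest called changes of a list, so this does not describe the other list genes. The row block compares IG27 cells with WT replicate 2 alone, the only WT array in their row.

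With the replicate number as a block, 10309 genes were called and 4 members were higher and 2 lower, and no member's call changed. Same-numbered arrays deviated together only weakly (correlations 0.01, 0.04 and 0.08) and 3 of 6 arrays correlated best with their own number, so the numbers were not taken as pairs.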
